A study of Mus musculus with 4 samples.

Results

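The Hedgehog pathway was followed through 9 genes, taken by symbol: the ligands *Shh* and *Ihh*, the receptor *Ptch1*, the decoy receptor *Hhip*, the signal transducer *Smo*, the intracellular inhibitor *Sufu*, and the transcription factors *Gli1*, *Gli2* and *Gli3*. All probe sets annotated to exactly 1 of these symbols were used, which gave 22 of 45037 probe sets and 9 of 18193 genes. RNA was measured on 4 Affymetrix arrays with 1 colour, 1 array per condition: Hand2NC heads at E12.5, wild-type heads at E12.5, Hand2NC whole embryos at E11.5 and wild-type whole embryos at E11.5. Hand2NC stands for *Hand2* CAT/+; *Wnt1-Cre*, in which *Wnt1-Cre* switches on a *Hand2* transgene in cells that have expressed *Wnt1*, chiefly the neural crest lineage, so a head or body also holds many cells without the activated transgene. The wild-type embryos were littermates, and all embryos shared a mixed C57BL/6J x ICR background. RNA of several embryos was pooled for each array, so no difference between 2 arrays has a replicate check and none is given a p-value. The stage and the tissue changed together, so an effect of E12.5 against E11.5 and one of head against whole body cannot be told apart.

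Hedgehog ligands are secreted proteins that bind Ptch1. Without ligand, Ptch1 holds Smo inactive, Sufu keeps the Gli proteins in check, and Gli3 is cut into a repressor. With ligand, Smo enters the primary cilium and full-length Gli2 and Gli3 activate targets that include *Ptch1*, *Gli1* and *Hhip* themselves. In the embryo, *Shh* is made by the notochord, floor plate, ventral forebrain, oral epithelium, gut and posterior limb bud, and neural crest mesenchyme of the face responds to it. Hand2 is a bHLH transcription factor that acts upstream of *Shh* in the posterior limb bud. The arrays therefore allowed a look at pathway RNA when *Hand2* is overexpressed in the neural crest.

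Factors of the bHLH class bind the E-box, CANNTG, which reads as the same motif on both strands. The 250 bases upstream of the annotated start were present in RefSeq (GRCm38.p6) for 7 of the 9 genes, all but *Shh* and *Gli1*. An E-box was present in 2 of the 7 windows, those of *Gli3* and *Sufu*, against 66.2% of the 32851 windows of all genes. The 2 windows are shown because they hold the element that the overexpressed class of factor can bind, with the E-box in capitals. Both lie on the plus strand, *Gli3* at chr13:15463473-15463722 and *Sufu* at chr19:46396646-46396895.
*Gli3*: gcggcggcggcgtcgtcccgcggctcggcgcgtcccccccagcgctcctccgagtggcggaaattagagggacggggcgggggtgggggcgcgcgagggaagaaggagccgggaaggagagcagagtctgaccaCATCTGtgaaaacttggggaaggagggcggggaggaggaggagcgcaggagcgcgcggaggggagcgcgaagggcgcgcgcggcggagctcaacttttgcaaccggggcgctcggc
*Sufu*: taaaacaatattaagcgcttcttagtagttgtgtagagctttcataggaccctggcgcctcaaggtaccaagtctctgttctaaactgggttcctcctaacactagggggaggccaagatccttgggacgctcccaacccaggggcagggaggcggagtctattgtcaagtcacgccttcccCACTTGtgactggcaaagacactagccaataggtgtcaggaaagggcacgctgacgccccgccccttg
The E-box starts 116 bases upstream of the *Gli3* start and 68 bases upstream of the *Sufu* start. The Gli motif GACCACCCA, searched on both strands, was in 0 of the 7 windows and in 0.225% of all windows. These are matches of letters and not measured binding.

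Each value below is a MAS5 signal, the linear brightness of a probe set, with a 2% trimmed mean of 500 set on all arrays. A probe set entered a comparison when its brighter array reached the median of that array, which was between 97.2 and 106. The ratio of 3′ to 5′ probe sets was between 1.36 and 1.48 for *Actb* and between 0.804 and 0.890 for *Gapdh*. The local spread given beside a difference is the robust SD of the same difference over the 500 probe sets nearest in signal, in which real change and measurement error are mixed. Of the 22 probe sets, 12 passed in at least 1 comparison and 11 in all 4. They covered 8 genes, since the single *Ihh* probe set passed in none, and 10 probe sets lay below the filter throughout.

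The targeted gene was read by 3 probe sets. On probe set 1422221_at, *Hand2* had a signal of 707 in Hand2NC and 33.4 in wild-type heads at E12.5, a log2 difference of 4.40, and of 314 in Hand2NC and 67.1 in wild-type embryos at E11.5, a log2 difference of 2.23. The brightest probe set, 1436041_at, had 840 in Hand2NC and 592 in wild-type heads, and 1244 in Hand2NC and 1214 in wild-type embryos. The third lay below the filter on every array. *Hand2* was thus higher in Hand2NC on both bright probe sets at E12.5, and at E11.5 one of them differed by 0.04 on the log2 scale, within its local spread of 0.15.

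The array of Hand2NC heads at E12.5 stood apart in its Y-linked genes. *Kdm5d* had a signal of 8.72 there, against 677 in wild-type heads, and *Eif2s3y* had 14.4, against 957. On the E11.5 arrays of both genotypes these 2 genes lay between 535 and 854. *Xist*, which is transcribed from the inactive X chromosome, had 16191 in Hand2NC and 8991 in wild-type heads. Y-linked signal therefore moved with genotype at E12.5, and its part in the E12.5 values below was not tested.

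None of the pathway probe sets above the filter reached a 2-fold difference between Hand2NC and wild-type at either stage. At E12.5 the count was 0 of 12, where 0.907% of 23362 probe sets passed 2-fold, and at E11.5 it was 0 of 11, where 0.787% of 23384 did. At such shares a count of 0 is near the background and is no result about these genes. The differences at E12.5 lay between -0.27 and 0.27 on the log2 scale with a median of 0.08, and those at E11.5 between -0.36 and 0.23 with a median of 0.03. The medians over all probe sets were -0.01 at E12.5 and 0.00 at E11.5. Beyond their local spread lay 3 higher and 2 lower probe sets of 12 at E12.5, and 1 higher and 2 lower of 11 at E11.5, while 34.1% and 34.3% of all probe sets lay beyond theirs. Where 2 probe sets of a gene passed, their genotype differences had the same sign in 2 of 4 genes at E12.5 and in 2 of 3 at E11.5, with gaps of up to 0.29 and 0.31.

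**Figure D1:**
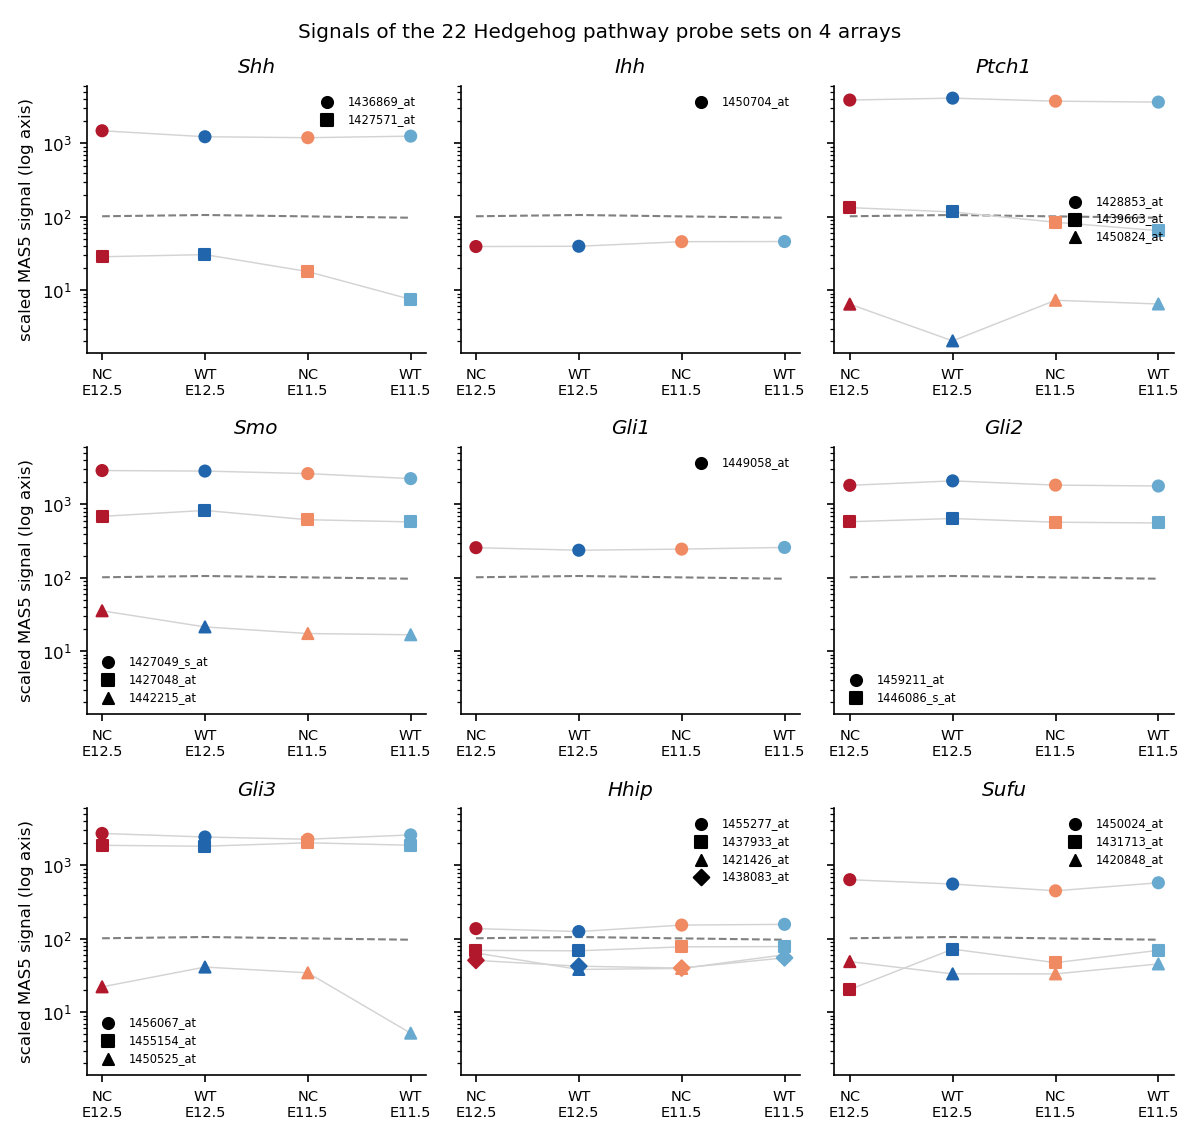
Scaled MAS5 signal (log axis) of each of the 22 probe sets of the 9 genes on the 4 arrays (NC, Hand2NC; WT, wild-type). Points are single pooled arrays, marker shapes stand for probe sets and the dashed line is the median of each array; the bright probe sets run almost level, and 10 probe sets stay below the filter.

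The ligand *Shh* was close to level on 3 arrays and higher on the fourth. Its bright probe set, 1436869_at, had signals of 1488 in Hand2NC and 1233 in wild-type heads at E12.5, and of 1197 in Hand2NC and 1257 in wild-type embryos at E11.5. The Hand2NC head array was the highest of the 4. The genotype difference was 0.27 with a local spread of 0.13 at E12.5 and -0.07 with a local spread of 0.14 at E11.5. A dim *Shh* probe set, 1427571_at, lay between 7.50 and 30.5, below the filter throughout. The brightest probe sets of the floor plate and notochord markers *Foxa1*, *Ntn1* and *Spon1*, genes of tissues that make *Shh*, had differences of 0.28, 0.24 and 0.10 in Hand2NC heads against wild-type heads, and *Foxa2* had -0.50. These were the 4 of 8 markers of that list with a named probe set, and their summed signal was 4308 in Hand2NC and 3837 in wild-type heads. Sums for other tissues that make *Shh* went both ways. Over 11 gut and lung endoderm markers, *Foxa1* and *Foxa2* again among them, the sum was 2725 in Hand2NC and 2558 in wild-type heads. Of the 6 above the filter, 2 were higher and 1 was lower beyond their local spread. Lower sums were found over 7 oral and dental epithelium markers, 5338 in Hand2NC and 5736 in wild-type heads. Over 7 ventral forebrain markers the sum was 3399 in Hand2NC and 3828 in wild-type heads. Of the oral markers 1 was higher and 2 were lower beyond their local spread, the lower ones being the keratins *Krt14* at -0.46 and *Krt5* at -0.39. Of 5 forebrain markers above the filter 3 were lower, *Six3* at -0.42, *Lhx6* at -0.40 and *Lhx8* at -0.26. The study reported weaker *Lhx8* staining in the maxillary process of Hand2NC at E12.5, so the forebrain sum is not specific to forebrain. The part of those tissues in the *Shh* value was not tested.

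*Ihh*, the ligand of growing cartilage and gut, lay between 39.4 and 46.0 on the 4 arrays, below the filter. Its signals were 39.4 in Hand2NC and 39.7 in wild-type heads, and 45.8 in Hand2NC and 46.0 in wild-type embryos. *Dhh*, the other mammalian ligand, also lay below the filter, between 58.8 and 72.2. No level of either ligand is read from these arrays.

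The receptor *Ptch1*, which is both a brake on the pathway and one of its targets, was almost level between genotypes on its bright probe set. On 1428853_at it had 3899 in Hand2NC and 4141 in wild-type heads, and 3763 in Hand2NC and 3656 in wild-type embryos. The differences of -0.09 and 0.04 were within local spreads of 0.09 and 0.12. A second probe set near the filter, 1439663_at, had 133 in Hand2NC and 117 in wild-type heads, a difference of 0.20 with a local spread of 0.41. At E11.5 it lay below the filter, with 84.3 in Hand2NC and 64.8 in wild-type embryos. The third, 1450824_at, stayed between 2.04 and 7.28.

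*Hhip*, which binds ligand without passing on a signal and is induced by it, had 1 of 4 probe sets above the filter. On 1455277_at the signal was 138 in Hand2NC and 126 in wild-type heads, and 154 in Hand2NC and 157 in wild-type embryos. Differences of 0.13 at E12.5 and -0.03 at E11.5 were smaller than the local spreads of 0.33 and 0.32. The other 3 probe sets lay between 38.2 and 78.3.

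*Smo*, the membrane protein that carries the signal inwards, gave differences of both signs. Probe set 1427049_s_at had 2895 in Hand2NC and 2847 in wild-type heads, and 2631 in Hand2NC and 2247 in wild-type embryos. Probe set 1427048_at had 688 in Hand2NC and 828 in wild-type heads, and 619 in Hand2NC and 578 in wild-type embryos. The first probe set differed by 0.23 at E11.5, beyond a local spread of 0.11, and by 0.02 at E12.5. The second differed by -0.27 at E12.5, beyond a local spread of 0.15, and by 0.10 at E11.5. At E12.5 the probe sets of this gene therefore did not share a direction. The third, 1442215_at, lay between 16.7 and 35.5.

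*Sufu*, the inhibitor that retains Gli proteins, had its lowest value in Hand2NC embryos at E11.5. On 1450024_at it had 639 in Hand2NC and 558 in wild-type heads, and 451 in Hand2NC and 580 in wild-type embryos. The difference of -0.36 at E11.5, with a local spread of 0.18, was the widest of the pathway probe sets above the filter, a 1.29-fold gap. At E12.5 the difference was 0.20 with a local spread of 0.17, and so of the other sign. The other probe sets of this gene, 1431713_at and 1420848_at, lay between 20.4 and 72.4, below the filter.

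The transcription factor *Gli1*, the usual readout of pathway activity because it is itself induced, had 258 in Hand2NC and 238 in wild-type heads, and 246 in Hand2NC and 259 in wild-type embryos. All 4 values lay within 238 to 259. The differences of 0.12 at E12.5 and -0.08 at E11.5 were smaller than the local spreads of 0.24 and 0.25.

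*Gli2*, the main activator among the Gli proteins, was read by a pair of bright probe sets. On 1459211_at the signals were 1820 in Hand2NC and 2094 in wild-type heads, and 1833 in Hand2NC and 1783 in wild-type embryos. On 1446086_s_at they were 581 in Hand2NC and 642 in wild-type heads, and 572 in Hand2NC and 559 in wild-type embryos. Wild-type heads were the highest array on both. The E12.5 differences were -0.20 with a local spread of 0.11 and -0.14 with a local spread of 0.17, and those at E11.5 were 0.04 and 0.03.

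*Gli3*, which acts mainly as a repressor, differed in sign between stages on one probe set and not on the other. On 1456067_at it had 2728 in Hand2NC and 2439 in wild-type heads, and 2273 in Hand2NC and 2604 in wild-type embryos. On 1455154_at it had 1880 in Hand2NC and 1825 in wild-type heads, and 2035 in Hand2NC and 1883 in wild-type embryos. The first probe set gave 0.16 at E12.5 and -0.20 at E11.5, each beyond a local spread of 0.11, and the second gave 0.04 and 0.11. The direction at E11.5 thus depends on which *Gli3* probe set is read. The dim probe set 1450525_at lay between 5.17 and 41.2.

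**Figure D2:**
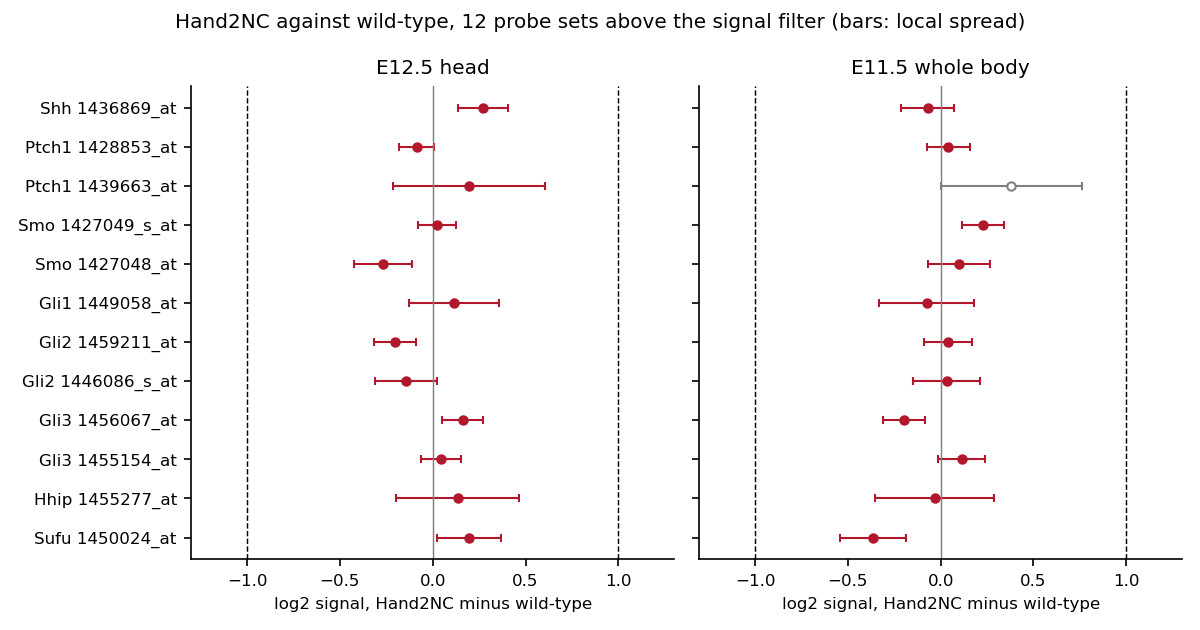
Log2 signal of Hand2NC minus wild-type for the 12 probe sets above the filter, at E12.5 (left) and E11.5 (right), with the local spread as bars and 2-fold as dashed lines. The open grey point is a *Ptch1* probe set below the filter at E11.5; all filled points lie between -0.36 and 0.27.

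A limma fit over all 4 arrays, with stage and genotype as terms, tested genotype across both stages. It has 1 residual degree of freedom, and the spread it uses comes wholly from a trend over all probe sets. A probe set's own residual carries no weight in it, which can understate the error of a single one. Of 24521 probe sets, 152 (0.62%) passed an adjusted p of 0.05 for genotype, and 0 of the 12 pathway probe sets did. Their unadjusted p-values lay between 0.189 and 0.912, and each adjusted p (limma, Benjamini-Hochberg) was 0.999993. The largest fitted genotype value above the filter was 0.29 with a standard error of 0.35, on *Ptch1* 1439663_at, and the bright *Shh* probe set had 0.10 with a standard error of 0.11. A p that misses the threshold does not show equal levels.

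The arrays also set E12.5 heads against E11.5 whole embryos, which hold limb buds, trunk and organs. A figure legend of the study calls the younger samples heads, whereas the sample labels call them whole body, and the labels are followed here. Markers of the trunk and its organs were bright in them. All 8 trunk *Hox* genes with a named probe set were at least 2-fold lower in heads in both genotypes, as were 5 of 6 liver genes, 6 of 7 heart genes and 1.66% of all genes. *Hoxd13*, a gene of the posterior limb bud, had 13.7 in Hand2NC and 18.1 in wild-type heads, and 1027 in Hand2NC and 1093 in wild-type embryos. Ventral forebrain markers were higher in heads, 4 of the 5 that passed the filter by at least 2-fold in both genotypes, as were 1.85% of all genes. *Dlx1*, made in the ventral forebrain, had 1160 in Hand2NC and 1223 in wild-type heads, and 380 in Hand2NC and 396 in wild-type embryos. In pooled tissue, fewer cells of a type and less RNA per cell cannot be told apart.

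Against this background the pathway genes again stayed within 2-fold. In Hand2NC, 0 of 12 probe sets passed, where 4.91% of 23700 did, and in wild-type 0 of 12 passed, where 7.12% of 23791 did. Over both genotypes, 2.78% of probe sets passed in the same direction. These shares are low, so 0 of 12 is near the background here too. The differences of E12.5 heads minus E11.5 embryos lay between -0.16 and 0.66 in Hand2NC and between -0.33 and 0.85 in wild-type, with medians of 0.10 and 0.08. Beyond the local spread lay 3 probe sets in each genotype, all higher in heads, while 34.5% of all probe sets in Hand2NC and 36.3% in wild-type lay beyond theirs. Probe sets of a gene shared a sign in 2 of 4 genes in Hand2NC and 4 of 4 in wild-type.

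The widest stage values came from *Ptch1* 1439663_at, with 0.66 in Hand2NC and 0.85 in wild-type, each beyond local spreads of 0.57 and 0.60. The brighter *Ptch1* probe set gave 0.05 in Hand2NC and 0.18 in wild-type, within local spreads of 0.25. *Sufu* was higher in heads in Hand2NC, by 0.50 with a local spread of 0.36, and gave -0.06 in wild-type. *Shh* likewise gave 0.31 in Hand2NC, with a local spread of 0.27, and -0.03 in wild-type. Both Hand2NC values use the E12.5 array with hardly any Y-linked signal, whose part was not tested. The *Sufu* value also rests on the Hand2NC array at E11.5, where its signal was 451, against 580 in wild-type embryos. The summed signal of the ventral forebrain markers was 3399 in Hand2NC and 3828 in wild-type heads, against 1281 in Hand2NC and 1333 in wild-type embryos, while that of the posterior limb bud markers was 1023 in Hand2NC and 926 in wild-type heads, against 3101 in Hand2NC and 3093 in wild-type embryos. The limb bud sum includes the overexpressed gene *Hand2* itself, with 840 in Hand2NC and 592 in wild-type heads. It therefore gives no genotype direction for that tissue. Ventral forebrain and posterior limb bud both make *Shh*, and their part in its level was not tested. *Hhip* gave -0.16 in Hand2NC and -0.33 in wild-type, and *Gli1* 0.07 in Hand2NC and -0.13 in wild-type, all within their local spreads.

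For *Smo*, both bright probe sets gave positive stage differences in both genotypes, beyond the local spread in wild-type only. On 1427048_at they were 0.15 in Hand2NC with a local spread of 0.30 and 0.52 in wild-type with one of 0.33. On 1427049_s_at they were 0.14 in Hand2NC with a local spread of 0.29 and 0.34 in wild-type with one of 0.34, which it barely exceeded. The limma fit over both genotypes gave 0.34 with a standard error of 0.13 and an adjusted p of 0.0297 for the first, and 0.24 with a standard error of 0.10 and an adjusted p of 0.0431 for the second. Both are under 2-fold and so were not called. Over 12 alternatives the adjusted p lay between 0.0247 and 0.356 for the first and between 0.0235 and 0.367 for the second, and it was not under 0.05 in 8 and 7 of them. Median centring gave 0.142 and 0.339, no filter 0.0783 and 0.0941, and a fit without the signal-dependent prior 0.220 and 0.285. Leaving out the wild-type heads gave 0.356 and 0.174, and leaving out the wild-type embryos 0.229 and 0.367. Without Hand2NC embryos the first probe set had a stage value of 0.39, and without Hand2NC heads the second had 0.23. For *Ptch1* 1439663_at the fit gave 0.75 with a standard error of 0.35 and an adjusted p of 0.0939. At an adjusted p of 0.05 and 2-fold, limma called 1151 of 24521 probe sets (4.69%) for stage, and 0 of 12 of the pathway.

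The wider pathway was read through lists of 46 further genes, of which 43 had a named probe set, each gene taken from its brightest one. None of the 40 above the filter at E12.5, nor of the 39 at E11.5, passed 2-fold between genotypes, where 0.398% and 0.446% of all genes did. The medians were -0.01 at E12.5 and 0.01 at E11.5, against 0.00 and -0.01 over all genes. Genes named below without a 2-fold difference, other than the brightest of a list, were chosen after their values were seen.

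Among 12 reception genes, which make, release or bind ligand, 10 were above the filter. Of these, 1 passed 2-fold between stages in the same direction in both genotypes, where 3.5% of all genes did, higher or lower. That gene was higher in heads, where 1.85% of all genes were at least 2-fold higher in both genotypes. *Disp2*, a relative of the ligand-release protein Disp1 that is found mainly in brain, had 322 in Hand2NC and 377 in wild-type heads, and 157 in Hand2NC and 149 in wild-type embryos. Its differences of 1.04 in Hand2NC and 1.34 in wild-type exceeded local spreads of 0.42 and 0.44, and limma gave 1.19 with a standard error of 0.19 and an adjusted p of 1.0e-08. *Disp1* itself gave 0.07 in Hand2NC and -0.03 in wild-type. *Gpc3*, a glypican that competes with Ptch1 for ligand, was lower in heads, with 5390 in Hand2NC and 5217 in wild-type heads against 7432 in Hand2NC and 7217 in wild-type embryos. The co-receptors *Cdon*, *Boc* and *Gas1* gave genotype differences between -0.09 and 0.16. *Hhat*, the enzyme that attaches palmitate to the ligand, had 138 in Hand2NC and 80.0 in wild-type heads, a difference of 0.79 with a local spread of 0.41, and lay below the filter at E11.5.

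All 16 transduction genes passed the filter, and 0 passed 2-fold in any comparison. Of all genes, 0.398% did for genotype at E12.5 and 0.446% at E11.5. Between stages, 5.11% of all genes in Hand2NC and 7.07% in wild-type did, so 0 of 16 is near the background. The brightest were *Gnas*, the stimulatory G protein that keeps protein kinase A active, and *Csnk1a1*, a kinase that marks Gli proteins for processing. *Gnas* had 16135 in Hand2NC and 16578 in wild-type heads, and 14379 in Hand2NC and 16273 in wild-type embryos. *Csnk1a1* had 8679 in Hand2NC and 8773 in wild-type heads, and 8642 in Hand2NC and 8133 in wild-type embryos. *Stk36*, a kinase related to fly fused, came nearest to the threshold between stages, with 321 in Hand2NC and 297 in wild-type heads, and 162 in Hand2NC and 160 in wild-type embryos. *Evc* and *Evc2*, partners that act with Smo at the base of the cilium, were 0.39 and 0.46 higher in Hand2NC heads than in wild-type heads, beyond local spreads of 0.24 and 0.21, and gave 0.01 and 0.06 at E11.5.

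Of 15 cilium genes 14 passed the filter, and 0 passed 2-fold in any comparison, which at 0.398% of all genes for genotype at E12.5, 0.446% at E11.5, and 5.11% in Hand2NC and 7.07% in wild-type between stages is near the background. *Kif3a*, a motor subunit of intraflagellar transport, had 856 in Hand2NC and 1089 in wild-type heads, and 887 in Hand2NC and 878 in wild-type embryos. *Ift122*, of the retrograde transport complex, had 941 in Hand2NC and 1081 in wild-type heads, and 773 in Hand2NC and 700 in wild-type embryos. *Tctn1*, of the ciliary transition zone, was the gene of these lists with the largest difference of the same sign at both stages, 0.44 at E12.5 and 0.47 at E11.5. Its limma value for genotype was 0.45 with a standard error of 0.21 and an adjusted p of 0.706, which does not pass.

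Genes that respond to Hedgehog, up or down, were counted in 3 lists of 25 genes together. None of the 20 above the filter at E12.5, nor of the 18 at E11.5, passed 2-fold between genotypes, where 0.398% and 0.446% of all genes did, so these counts are near the background. The medians were -0.01 at E12.5 and 0.03 at E11.5, against 0.00 and -0.01 over all genes. In the ventral neural tube list 5 of 8 genes were above the filter at E12.5. *Olig2*, which marks motor neuron progenitors, had 170 in Hand2NC and 184 in wild-type heads, and 102 in Hand2NC and 66.3 in wild-type embryos. It passed 2-fold between stages in wild-type, with 1.47, and not in Hand2NC, with 0.73. The difference between these was not tested. *Nkx2-1*, the ventral forebrain target of *Shh*, lay between 2.39 and 5.88, below the filter on every array, so the forebrain response could not be read from it.

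Of the mesenchyme targets, 8 of 10 passed the filter at E12.5, and 0 passed 2-fold between genotypes, near the background of 0.398%. *Foxd1*, a forkhead factor of facial mesenchyme, had 1793 in Hand2NC and 1810 in wild-type heads, and 1807 in Hand2NC and 1763 in wild-type embryos. *Foxc2*, another, had 958 in Hand2NC and 857 in wild-type heads, and 856 in Hand2NC and 968 in wild-type embryos. *Osr2*, which is needed in palate and tooth mesenchyme, and *Pax1*, a factor of sclerotome and pharyngeal pouches, were lower in Hand2NC heads. *Osr2* had 77.4 in Hand2NC and 135 in wild-type heads, a difference of -0.80 with a local spread of 0.40. *Pax1* had 198 in Hand2NC and 296 in wild-type heads, a difference of -0.58 with a local spread of 0.25. *Foxf1*, which marks gut and lung mesenchyme, had 291 in Hand2NC and 283 in wild-type heads, and 562 in Hand2NC and 396 in wild-type embryos.

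All 7 growth targets passed the filter. The cyclin genes *Ccnd1* and *Ccnd2* had genotype differences of 0.03 and -0.13 at E12.5 and of 0.02 and -0.27 at E11.5. *Ccne1*, a cyclin of entry into S phase, was lower in heads, with 577 in Hand2NC and 506 in wild-type heads, and 941 in Hand2NC and 959 in wild-type embryos.

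**Figure D3:**
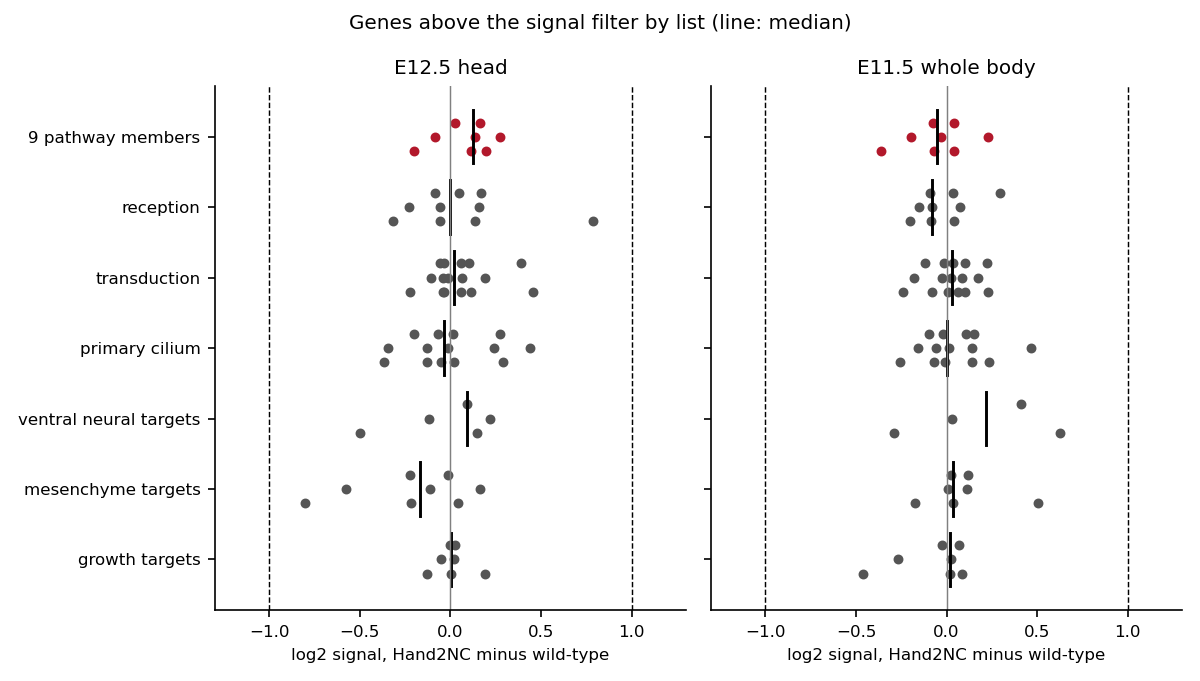
Log2 signal of Hand2NC minus wild-type for the genes above the filter in each list, at E12.5 (left) and E11.5 (right), 1 point per gene from its brightest probe set, with the list median as a black line and 2-fold as dashed lines. The 9 pathway members are in red, of which *Ihh* is below the filter, and no point lies past 2-fold.

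**Figure D4:**
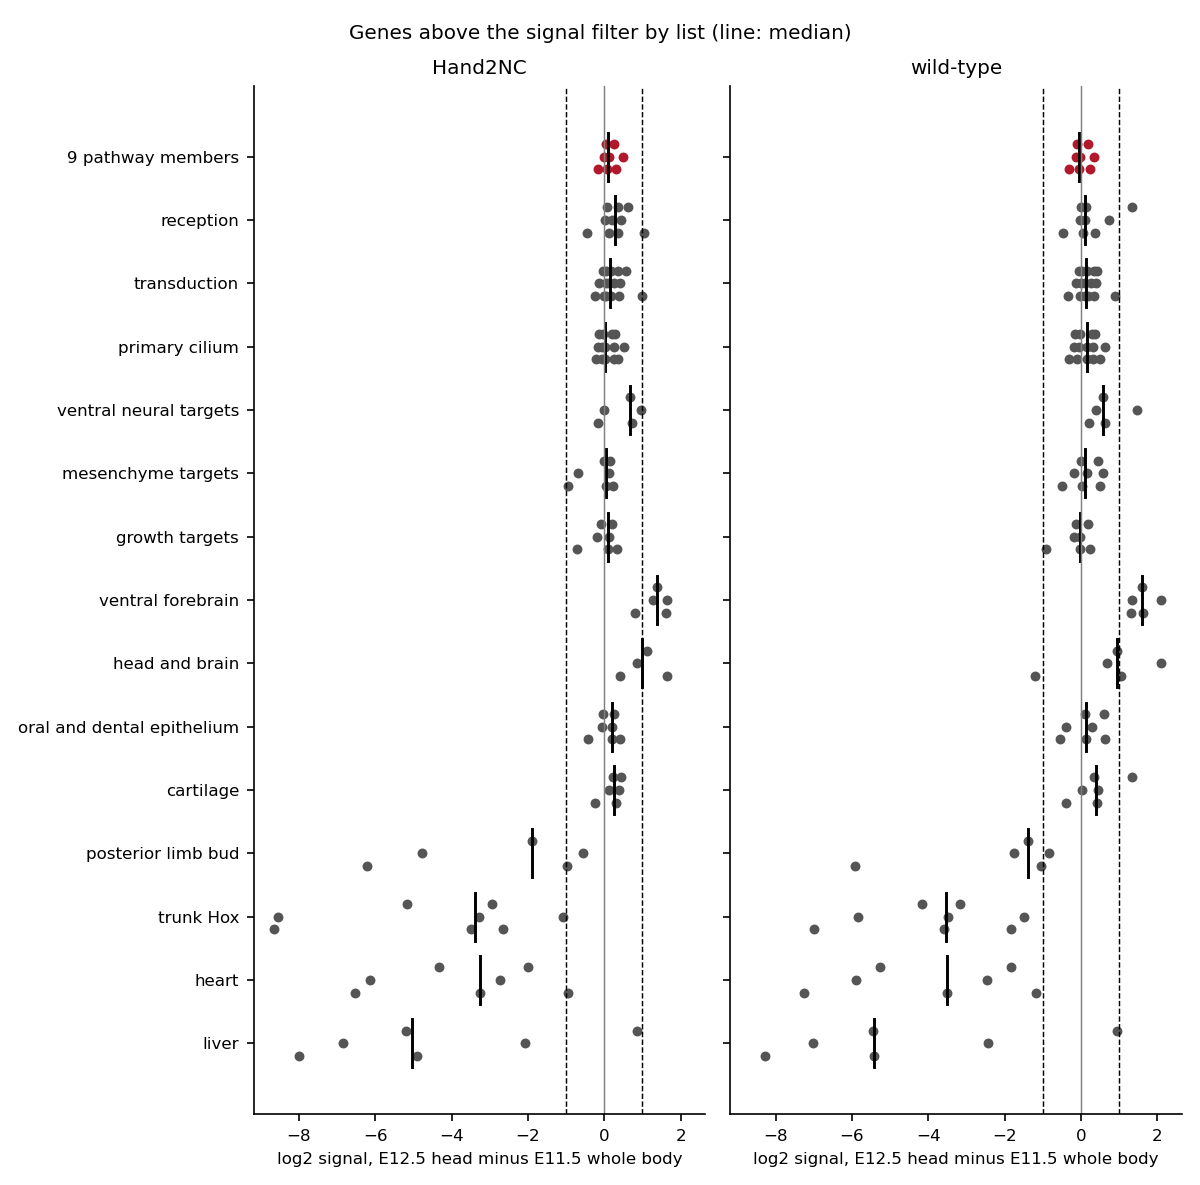
Log2 signal of E12.5 heads minus E11.5 whole embryos in Hand2NC (left) and wild-type (right) for the genes above the filter in each pathway, target and marker list. The pathway members (red) lie within 2-fold of 0. All trunk *Hox* and most heart and liver genes lie past 2-fold to the left, and most ventral forebrain genes past 2-fold to the right.

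The genes whose profile over the 4 arrays was nearest to that of *Shh*, by the Euclidean distance of centred log2 signals, were *2810408A11Rik* at 0.01, *Frmd4b* at 0.02 and *Tmem107* at 0.03. In all, 109 of 18192 genes lay within 0.1 of *Shh*. For *Gli1* the nearest were *Sepsecs* at 0.01, *Prdm6* at 0.02 and *Ncln* at 0.02, and 618 of 18192 genes lay within 0.1. With 4 arrays and such small differences, a near profile is a description only.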

How the data were processed

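Gene expression was measured on 4 Affymetrix mouse genome arrays with 1 colour, 1 pooled array per condition. The deposited values are linear intensity values, 1 signal for each of 45101 probe sets, made by the authors with MAS5, whose version is not given in the sources used here. Their 2% trimmed mean was between 497.5 and 497.7. Left out were 64 control probe sets. The arrays were brought to a 2% trimmed mean of 500 before log2. The platform annotation gave 34945 probe sets 1 symbol, 932 several and 9160 none. A probe set was kept when the brighter of 2 arrays reached its array's median, and called at 2-fold. Lists used each gene's brightest probe set. limma 3.58.1 (R 4.3.3) fitted stage and genotype with a signal-dependent prior and Benjamini-Hochberg adjustment over 24521 probe sets. The rule for named genes took all members, *Hand2*, up to 4 genes of a list past 2-fold or else its 2 brightest, and the nearest 3 to *Shh* and *Gli1*; other genes named were chosen after their values were seen. The members and lists were chosen with earlier results of these data known. Alternatives changed the scaling, the filter, the choice of probe set, the prior, the terms and the arrays fitted. Fits without an array held only the tested term. The counting and the fit were tested on simulated data. Python 3.11.15, numpy 2.4.6 and pandas 2.3.3 were used. The number of arrays limits the precision.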

Additional observations from a re-analysis of the deposited data

Results flagged for a closer look

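*Gli3* and *Sufu* differed between genotypes in opposite directions at the 2 stages, each beyond its local spread. For *Gli3* 1456067_at the log2 difference of Hand2NC minus wild-type was 0.16 at E12.5 and -0.20 at E11.5. For *Sufu* 1450024_at it was 0.20 at E12.5 and -0.36 at E11.5. With 1 array per condition the difference between the stages was not tested. The other bright *Gli3* probe set, 1455154_at, gave 0.04 at E12.5 and 0.11 at E11.5, and *Sufu* has no second probe set above the filter. As the mean over all probe sets of a gene, dim ones included, *Gli3* gave -0.23 at E12.5 and 0.88 at E11.5, and *Sufu* -0.36 and -0.46. The opposite signs of *Sufu* are therefore not kept under that choice, and those of *Gli3* are turned round. The E12.5 values include the Hand2NC array with hardly any Y-linked signal, whose part was not tested.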

How the results depend on the processing

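No paired analysis of replicates was possible because each condition has 1 pooled array. The limma fit with stage as a term compares the genotypes within stages. The call of 0 pathway probe sets past 2-fold depended on the filter: without it, 2 passed at E12.5 and 2 at E11.5 between genotypes, and 2 in Hand2NC and 3 in wild-type between stages, all of them dim. Median centring, quantile normalization, the stricter filter and the other choices of probe set left 0. The members' median genotype difference at E11.5 became -0.03 with median centring and -0.05 with 1 probe set per gene, and their median stage difference in wild-type became -0.05 and -0.04, so no direction is read from either. Median centring moves every stage value in wild-type by -0.12.

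Counts over all probe sets moved more. At E12.5, 212 became 7687 with no filter, 25 with the 75th percentile as filter, 68 with dim signals set to the median and 47 with 1 probe set per gene. At E11.5, 184 became 7547, 9, 42 and 53. For stage in Hand2NC, 1163 became 8942, 353, 723 and 613, and 641 with the mean over probe sets. In wild-type, 1694 became 9743, 495, 1040 and 852, and 775. In both genotypes, 682 became 2830 with no filter, 263 with the 75th percentile, 429 with 1 probe set per gene and 327 with the mean. The limma stage count of 1151 became 395 with the 75th percentile and 718 with dim values raised. The genotype count of 152 became 48 with median centring, 54 with quantile normalization and 11 with no filter. It became 100 with the 75th percentile, 89 with dim values raised, and 0 either without the signal-dependent prior or without stage as a term. Fits without an array held only the tested term and left 1 array in a group, so no count is given for them. With 1 array per condition, the main fit borrows all of its spread from the trend over all probe sets. The fits that gave 0 to 4 genotype calls borrow less of theirs, and the cause of each move was not tested. At E11.5, 103 higher and 81 lower calls became 82 and 99 with median centring, at E12.5, 90 higher and 122 lower became 108 and 101, and in wild-type 1133 higher and 561 lower stage calls became 821 and 731.

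Among values past 2-fold, the sign turned in 3: *Hand2* 1422221_at at E11.5 gave -0.013 as the mean over probe sets, its stage value in Hand2NC gave -0.57 from the brightest probe set, and *Six3* in wild-type gave -0.40 as the mean. Among member values, all within 2-fold, median centring turned *Ptch1* 1428853_at and both *Gli2* probe sets at E11.5 to about -0.02, -0.02 and -0.03. The mean over probe sets, which includes dim ones, turned 16 member values, the brightest probe set per gene turned 5 and quantile normalization 1.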
